A study of Sus scrofa with 6 samples.

Results

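Tenomodulin (TNMD), periostin (POSTN) and 7 further genes of the connective tissue around muscle fibres, namely decorin (DCN), lumican (LUM), biglycan (BGN), fibromodulin (FMOD), osteonectin (SPARC), fibronectin (FN1) and thrombospondin 4 (THBS4), were compared between the *psoas major* muscle (PMM) and the *longissimus dorsi* muscle (LDM) of the pig. A probe was taken when its gene name was one of these symbols, or when its description held the symbol in round brackets or the name of tenomodulin, periostin or 1 of the 4 proteoglycans. This gave 15 of the 43603 probes of the array, for 7 of the 9 genes and of the 3459 genes with a name. TNMD, BGN and FMOD each had 1 probe, POSTN had 2, DCN and FN1 had 3 each and SPARC had 4, while no probe met the rule for LUM or THBS4. The set was put together because TNMD and POSTN were lower in PMM in these same arrays, so the values of these 2 genes are given as a description, with no test. The question was whether the other connective tissue genes go with them.

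LDM is a white, glycolytic muscle of the back and PMM a red, oxidative muscle of the loin. Both came from untreated female Landrace pigs slaughtered at 210 days of age, and 3 one-colour Agilent arrays were run per muscle, each with Cy3-labelled RNA of 1 sample. The pigs, 3 in number, gave both muscles, and the replicate number was also the day of scanning, with 1 LDM and 1 PMM array on each day. The LDM and PMM arrays of replicate 2 shared a slide, as did those of replicate 3. In replicate 1 they lay on different slides, so muscle and slide cannot be told apart there. The samples were pieces of whole muscle, so a lower signal can stand for fewer cells of a type or for less RNA per cell, and these cannot be told apart here. Of the 43803 non-control spots of an array, between 25630 and 31707 were well above the background, and none was saturated. Of the 9 genes that define skeletal muscle, 7 had a probe, among them skeletal actin (ACTA1), muscle creatine kinase (CKM), desmin (DES) and titin (TTN), and all 7 exceeded the background clearly on every array.

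Muscle fibres are held together by sheaths of collagen fibrils that pass into tendon and fascia. Decorin, lumican, biglycan and fibromodulin are small proteoglycans with a core of leucine-rich repeats, and they bind collagen and govern how its fibrils assemble. Tenomodulin is a membrane protein typical of tendon and other dense connective tissue. Periostin, osteonectin and thrombospondin 4 are matricellular proteins, which lie in the matrix and tune how cells and fibrils interact rather than bearing load, and fibronectin is an adhesive glycoprotein on which cells lay down new matrix.

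The signals below were read by 60-base probes. The probes of TNMD and of the 3 proteoglycans are shown because they make visible what was measured for each gene, with the stretch ACAACNANAT, where N stands for any base, in capitals where it occurs.

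TNMD: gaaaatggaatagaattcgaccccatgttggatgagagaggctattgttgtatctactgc

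DCN, probe 3: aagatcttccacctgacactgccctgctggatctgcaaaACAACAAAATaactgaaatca

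BGN: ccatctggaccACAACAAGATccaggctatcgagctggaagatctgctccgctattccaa

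FMOD: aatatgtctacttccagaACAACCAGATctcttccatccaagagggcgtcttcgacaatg

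The stretch was chosen from these sequences, as the 10-base window with the most bases (8) in common between 1 probe each of DCN, BGN and FMOD, so its presence in them is no finding. On the strand given in the files it was present in 3 of the 15 probes, 1 each of DCN, BGN and FMOD, and in 64 of all 43603 probes (0.147%), or in 125 (0.287%) when both strands were searched. TNMD and POSTN did not hold it. The first 30 bases of the 2 POSTN probes show that they read different stretches.

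POSTN, probe 1: agaaaattcttgtccctggattcattacaa

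POSTN, probe 2: tcttaaaggaaaaatatgagagccacctca

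Several probes of a gene overlapped and are not independent readings of it. The first and second DCN probes shared 54 bases with 0 mismatches, the first and second SPARC probes 56 bases with 1 mismatch, and the first and second FN1 probes 55 bases with 1 mismatch. The POSTN probes did not overlap each other.

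All values below are log2 of the spot signal relative to the 75th percentile of the same array, so that 0 is the 75th percentile and a difference of 1 is a doubling. They compare a probe between arrays and not a gene with another gene. Tenomodulin had a normalized signal of 0.01, -0.86 and -0.49 in LDM replicates 1, 2 and 3, and of -2.47, -2.14 and -4.27 in PMM replicates 1, 2 and 3. Every PMM array lay below every LDM array, as for 2.89% of all tested probes, and the lowest of all was PMM replicate 3. The mean was -0.45 ± 0.43 in LDM and -2.96 ± 1.15 in PMM (SD, n = 3 each), a difference of -2.52, or a signal 5.72-fold higher in LDM. PMM minus LDM was -2.48, -1.29 and -3.78 in the pairs of arrays with the same number. The probe exceeded the background clearly on each array, but its spot intensity in PMM replicate 3 was 35.3 against 683.7 in LDM replicate 1. Without PMM replicate 3 the difference was -1.86, and with another background correction (normexp) it was -1.40.

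For periostin, the brighter probe read 0.71, 1.57 and 2.11 in LDM and -1.39, 0.49 and 0.39 in PMM. The second probe read 0.41, 1.34 and 1.44 in LDM and -1.66, 0.38 and -0.03 in PMM. With both probes every PMM array lay below every LDM array, by a wide margin in replicate 1 and narrowly between PMM replicate 2 and LDM replicate 1. The brighter probe had a mean of 1.46 ± 0.71 in LDM and -0.17 ± 1.06 in PMM (SD, n = 3 each). The difference of the means was -1.63 for the brighter and -1.50 for the second probe, or 3.09-fold and 2.83-fold higher signals in LDM. In pairs of one number the brighter probe differed by -2.10, -1.08 and -1.71, so both genes differed least in replicate 2. Without PMM replicate 1 the difference of the brighter probe was -1.02.

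**Figure D1:**
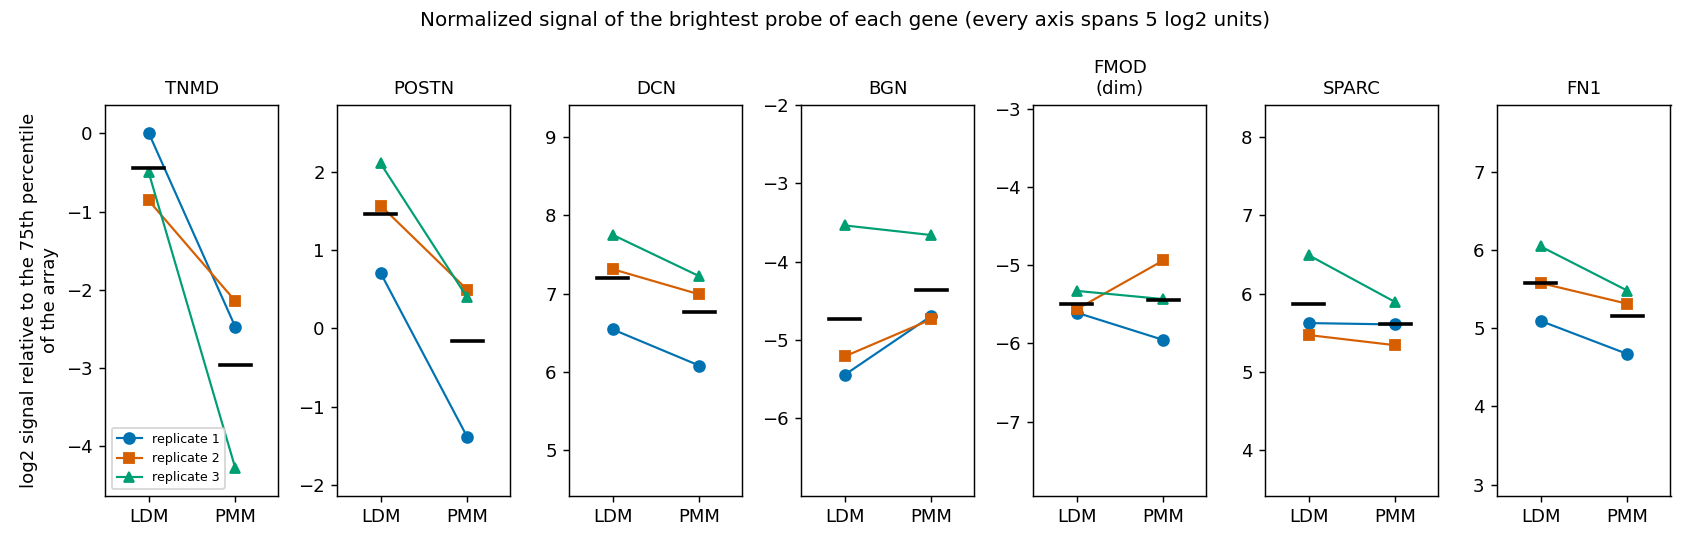
Normalized log2 signal (vertical axis, relative to the 75th percentile of the array) of the brightest probe of each of the 7 genes in LDM and PMM; points joined by a line are the arrays of one replicate number, black bars are means of 3 arrays, and every panel spans 5 log2 units. TNMD and POSTN have every PMM array below every LDM array, while in DCN, BGN, SPARC and FN1 the muscles overlap.

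The other genes did not show such a gap. Of the 4 tested (DCN, BGN, SPARC and FN1), 3 had a lower mean in PMM, 0 were called different between the muscles by limma at an adjusted p of 0.05, and 0 had an unadjusted p under 0.05. In the same fit 8 of 25835 probes were called (0.031%), of which 5 were lower (0.0194%) and 3 higher (0.0116%) in PMM, and 679 had an unadjusted p under 0.05. The median difference of the 4 genes was -0.33, beside -0.04 over all tested probes. By probes, 10 of the 11 tested had a lower mean in PMM, beside 55.8% of all probes. These 10 are probes of DCN, SPARC and FN1 alone, some of which overlap, so they are not independent readings. None of the 4 genes had every PMM array below every LDM array, which 2.89% of all probes had. Adding the replicate number as a block raised the calls to 17 of 25835 probes (0.0658%), 9 lower (0.0348%) and 8 higher in PMM, and again 0 of the 4 genes were among them.

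Decorin is an abundant small proteoglycan of the muscle sheaths. Its brightest probe read 6.54, 7.31 and 7.75 in LDM and 6.08, 6.99 and 7.22 in PMM. The muscles overlapped, and in both replicate 1 was lowest and replicate 3 highest. PMM was lower in each pair of one number, with differences of -0.46, -0.32 and -0.53, against a range of 1.21 within LDM and 1.14 within PMM. The difference of -0.44 (SE 0.44) had a 95% interval from -1.43 to 0.56 and an adjusted p of 1.0 (limma), with an exact two-sided permutation p of 0.40, where 0.1 is the smallest possible. The fit with the replicate number as a block gave an unadjusted p of 0.040 (limma) and an adjusted p of 0.42.

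The other DCN probes showed the same order of arrays. The overlapping second probe differed by -0.38 (SE 0.45) and the third, whose sequence stands above, by -0.50 (SE 0.45), both lower in PMM in all 3 pairs.

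Biglycan, which like decorin binds collagen and also holds growth factors in the matrix, was read by a dim probe. Its signal was -5.45, -5.21 and -3.54 in LDM and -4.70, -4.74 and -3.66 in PMM, with spot intensities between 15.5 and 56.7. Replicate 3 was the brightest array in both muscles, and the muscles overlapped. The mean was higher in PMM by 0.37 (SE 0.55), with a 95% interval from -0.89 to 1.62, an adjusted p of 1.0 in limma and an exact permutation p of 0.60. PMM was higher in replicates 1 and 2, by 0.75 and 0.47, and the difference in replicate 3 was -0.12. Leaving out LDM replicate 3 gave a mean difference of 0.97, and leaving out LDM replicate 1 gave 0.0098, LDM replicate 2 gave 0.13 and PMM replicate 3 gave 0.015.

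Fibromodulin, which takes part in collagen cross-linking, was near the background with this probe. It was well above the background only in LDM replicate 1 and PMM replicate 2, so it was not tested. Its readings of -5.61, -5.56 and -5.33 in LDM and of -5.95, -4.94 and -5.43 in PMM give no order of the muscles.

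Osteonectin binds collagen on its way into the matrix. Its brightest probe read 5.62, 5.47 and 6.49 in LDM and 5.61, 5.34 and 5.89 in PMM. Replicates 1 and 2 were nearly level between the muscles, with differences of -0.018 and -0.13, and replicate 3 differed by -0.60. The difference of the means was -0.25 (SE 0.37), with a 95% interval from -1.08 to 0.59, an adjusted p of 1.0 in limma and an exact permutation p of 0.60. Without LDM replicate 3 it turned to 0.066. The other 3 probes gave differences of -0.22, -0.28 and -0.19. The second probe was higher in PMM in replicate 1, by 0.12, and the fourth in replicate 2, by 0.0069. The fourth probe reads the following stretch.

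SPARC, probe 4: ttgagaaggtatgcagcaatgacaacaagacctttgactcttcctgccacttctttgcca

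Fibronectin gave values like those of decorin. Its brightest probe read 5.09, 5.58 and 6.05 in LDM and 4.67, 5.31 and 5.48 in PMM. The muscles overlapped, with differences of -0.42, -0.26 and -0.56 in pairs of one number. The difference of the means was -0.42 (SE 0.37), with a 95% interval from -1.27 to 0.43, an adjusted p of 1.0 in limma and an exact permutation p of 0.40. The second probe, which overlaps the first, differed by -0.40 (SE 0.34). The third differed by -0.55 (SE 0.40), with pairs at -0.60, -0.35 and -0.69, and it had the lowest unadjusted p of the set in the blocked fit, 0.021, with an adjusted p of 0.35.

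**Figure D2:**
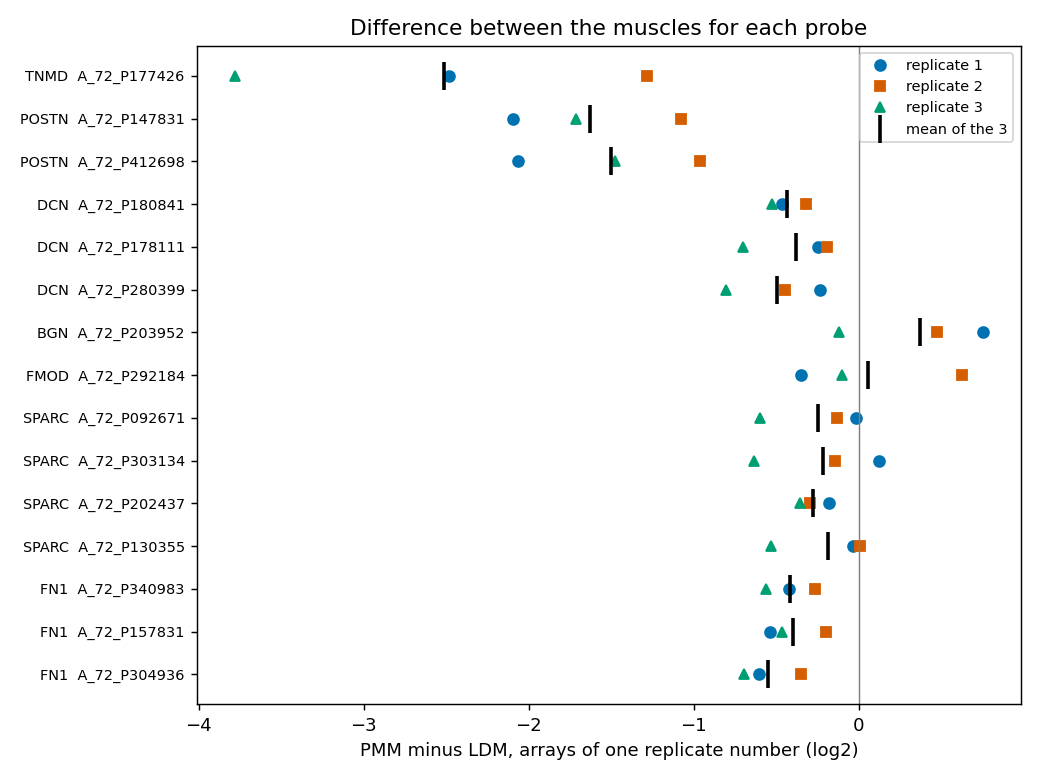
Difference between the muscles for each of the 15 probes (horizontal axis, PMM minus LDM, log2), with 1 symbol per pair of arrays of one replicate number and a black bar at the mean of the 3. All pairs of the TNMD and POSTN probes lie at or beyond -0.96, while all pairs of the other probes lie between -0.81 and 0.75.

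Lower in PMM in all 3 pairs were the brightest probes of DCN, SPARC and FN1, against 19.3% of all tested probes and 21.4% of the named genes. For SPARC this did not hold with the second probe (0.12 in replicate 1) or the fourth (0.0069 in replicate 2). BGN was higher in PMM in 2 of the 3 pairs. The 95% intervals of the 4 genes reached no lower than -1.43 (DCN), -0.89 (BGN), -1.08 (SPARC) and -1.27 (FN1). These intervals come from the fit without the pairs and carry the spread between replicate numbers, which within LDM had a range of 1.21 for DCN, 1.02 for SPARC and 0.95 for FN1. With the number as a block the standard errors were smaller, at 0.16 for DCN, 0.22 for BGN, 0.19 for SPARC and 0.17 for FN1, and the adjusted p were 0.42, 0.61, 0.70 and 0.45 (limma).

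LUM was not analysed here, and THBS4 only through a probe outside the rule. That probe, found by its description as a bovine-like thrombospondin 4 precursor after the values were known, read 5.80, 6.03 and 6.95 in LDM and 6.03, 5.93 and 6.74 in PMM. The muscles overlapped fully, with a difference of -0.03 (SE 0.40) and an adjusted p of 1.0 (limma). A further probe described as a SPARC precursor differed by 0.11 (SE 0.36), in the opposite direction to the 4 SPARC probes.

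The wider matrix showed a like picture. Over 5 lists of collagens, basement membrane, proteoglycan, matricellular and processing genes, 28 further genes were tested. Of these, 21 had a lower mean in PMM (75%, beside 51.9% of all 2845 named genes), 14 were lower in all 3 pairs (50%, beside 21.4%), and 3 had every PMM array below every LDM array (10.7%, beside 3.06%). In the other direction, syndecan 4 (SDC4) and CCN2 had every PMM array above every LDM array, as did 4.11% of all named genes. The median difference was -0.35, beside -0.01 over named genes. COL11A1 and LAMB1 entered these counts through LDM, where alone they were well above background on every array. Of the 26 matrix genes that were so on all 6 arrays, 19 had a lower mean (73.1%), 12 were lower in all 3 pairs (46.2%) and 2 did not overlap (7.69%), beside 52.3%, 21.7% and 3.01% of the 2726 named genes of that kind, with medians of -0.33 and -0.01. In limma 0 of the 28 were called. An unadjusted limma p under 0.05 was found for 4 of them, beside 679 of all 25835 tested probes. These were COL11A1 (entered through LDM), COL12A1 and KERA, lower in PMM, and CCN2, higher in PMM. In the blocked fit 0 of the 28 were called, where 1 of all named genes was called higher (0.0351%) and 0 lower. Without LDM replicate 3, the array with the highest signal for several matrix genes, 15 of 28 had a lower mean and the median was -0.05.

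The collagens had the most tested genes of these lists. Of the 11 tested, 10 had a lower mean in PMM and 8 were lower in all 3 pairs, with a median of -0.43, and of the 10 among them well above background everywhere 9 and 7 did, with a median of -0.42. Collagen XI alpha 1 (COL11A1), a minor fibrillar collagen that sets fibril diameter, read -3.14, -3.68 and -3.63 in LDM and -5.83, -5.24 and -7.07 in PMM. It exceeded the background clearly on every LDM array and on no PMM array, which leaves a bound: the LDM signal was at least 2.78-fold higher. The bound itself was not tested. The adjusted p of 0.67 in limma, and of 0.17 with the block, belong to the measured difference of -2.56, for a gene that entered through LDM alone. The median of the list was -0.43 with COL11A1 at this bound too.

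Collagen XII alpha 1 (COL12A1), which lies on the surface of fibrils in tendon and sheaths, read 0.66, -0.06 and -0.14 in LDM and -1.1, -0.89 and -0.56 in PMM. Its arrays did not overlap either, and the difference was -1.01 (SE 0.34, adjusted p of 1.0 in limma). The tendon and muscle collagen chain COL1A2 was lower in PMM in the pairs, at -0.81, -0.65 and -1.05, a mean difference of -0.84 (SE 0.53), but its muscles overlapped. Without LDM replicate 3, 6 of the 11 collagens had a lower mean, with a median of -0.22.

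Keratocan (KERA), a relative of decorin that carries keratan sulfate, had the largest difference among the 4 other proteoglycans tested. It read -0.08, 0.82 and 0.70 in LDM and -1.55, -0.45 and -0.80 in PMM, so that the arrays did not overlap, and the pairs differed by -1.47, -1.27 and -1.50. The mean difference of -1.41 (SE 0.40) had an adjusted p of 1.0 in limma and 0.12 with the replicate number as a block. The membrane proteoglycans syndecan 4 (SDC4) and syndecan 2 (SDC2) differed by 0.60 (SE 0.33) and -0.32 (SE 0.33), both at an adjusted p of 1.0 (limma). For SDC4 every PMM array lay above every LDM array.

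Among the other matricellular and elastic genes 6 of 9 had a lower mean in PMM. Osteopontin (SPP1), a secreted phosphoprotein, differed by -2.60 (SE 1.29), but LDM replicate 2 at -1.54 lay among the PMM arrays, while LDM replicates 1 and 3 were at 3.14 and 3.58. Connective tissue growth factor (CCN2), which drives matrix synthesis, lay the other way. It read -0.05, 0.17 and 1.1 in LDM and 1.24, 1.69 and 1.85 in PMM, with no overlap, as in 4.11% of named genes with every PMM array above every LDM array, and a difference of 1.18 (SE 0.39, adjusted p of 1.0 in limma). Cartilage oligomeric matrix protein (COMP), a thrombospondin of tendon, differed by -0.60 (SE 0.99), with a range of 3.70 within LDM.

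Few genes of the other 2 matrix lists were measured. Laminin beta 1 (LAMB1) differed by -0.91 (SE 0.89) but 1 PMM array was not well above background, and collagen IV alpha 2 (COL4A2), also of the basement membrane, differed by 0.21 (SE 0.52). Of the enzymes that modify collagen and matrix, transglutaminase 2 (TGM2) differed by 0.48 (SE 0.38) and prolyl 4-hydroxylase alpha 1 (P4HA1) by -0.05 (SE 0.33). No gene of these lists was called in either fit.

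**Figure D3:**
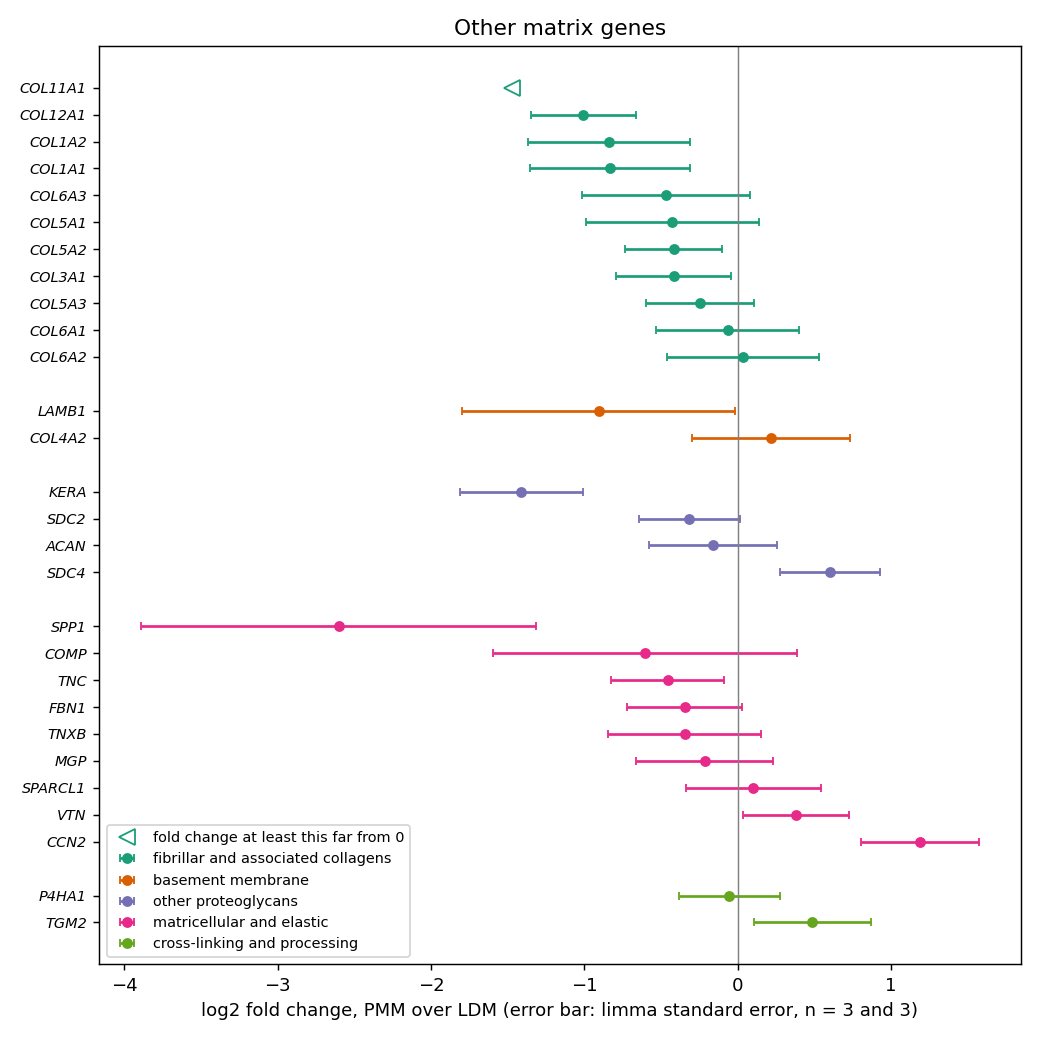
Difference between the muscles for 28 other matrix genes (horizontal axis, log2 fold change, PMM over LDM) with limma standard errors, grouped in 5 lists by colour; the open triangle is the bound for COL11A1, which was not above background in PMM. Most points lie left of 0 by less than 1, and CCN2 lies to the right of 0 at 1.18.

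Regulators of tendon and of transforming growth factor beta signalling, which acts on fibroblasts to raise matrix synthesis, gave 6 of 9 genes with a lower mean in PMM and a median of -0.20. Myostatin (MSTN), a growth factor of this family that restrains muscle growth, read 1.24, 0.94 and 1.08 in LDM and 0.56, 0.80 and -0.46 in PMM, a difference of -0.79 (SE 0.38). The ligand TGFB2 read 1.37, 1.29 and 1.40 in LDM and 0.91, 0.69 and 0.59 in PMM, a difference of -0.63 (SE 0.28). In both every PMM array lay below every LDM array, as did 3.06% of all named genes, and in both the adjusted p was 1.0 (limma). The co-receptor TGFBR3 differed by -0.57 (SE 0.51) with overlap. Without LDM replicate 3 the list had 4 of 9 genes lower and a median of 0.02.

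The matrix receptors were evenly split, with 2 of 5 lower in mean and a median of 0.02. The scavenger and thrombospondin receptor CD36 differed by 0.65 (SE 0.33), the integrin chain ITGB3 by -0.42 (SE 0.51) and the collagen receptor DDR2, not well above background on 1 PMM array, by 0.25 (SE 0.41).

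Markers of cells that make or accompany the matrix were read beside these results. Of 15 fibroblast markers only 4 were tested, 2 lower and 2 higher in mean in PMM, with a median of -0.06. Among them were IGFBP6 at -0.48 (SE 0.41), CD34 at 0.21 (SE 0.34) and IGFBP5 at -0.13 (SE 0.55). All 7 endothelial markers had a higher mean in PMM, with a median of 0.38, led by endoglin (ENG) at 0.79, the cadherin CDH5 at 0.46 and the receptor TEK at 0.41. All 3 markers of smooth muscle and pericytes did too, with a median of 0.60, namely RGS5 at 0.75, SMTN at 0.60 and CNN1 at 0.52. None of these genes was called. Without LDM replicate 1, 4 of the 7 endothelial markers had a higher mean, with a median of 0.03, and without PMM replicate 3, 5 of 7, with a median of 0.096.

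Adipocyte markers had 5 of 8 genes lower in mean in PMM and a median of -0.37, which turned to 0.09 with the normexp correction and to 0.01 without PMM replicate 1. Lipoprotein lipase (LPL), which muscle fibres also express, differed by 1.12. Perilipin 1 (PLIN1) and resistin (RETN) differed by -1.03 and -0.97, but they entered through LDM, each not well above background on 1 PMM array. LPL and the remaining markers were well above background on all 6 arrays. These remaining markers were mixed, with CIDEC at -0.86, ADIPOQ at -0.63, LEP at -0.10, PPARG at 0.05 and FABP4 at 0.10. Macrophage markers had 3 of 7 genes lower in mean, with C1QB at 0.34, CD14 at 0.16 and C1QC at -0.16, and their median ran from -0.57 without LDM replicate 1 to 0.59 without LDM replicate 3. The myelin gene MBP differed by -0.41, and no probe was found for the 6 erythrocyte markers. The part of these cell types in the TNMD and POSTN differences was not tested.

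Genes of the slow, oxidative fibres were read as a contrast to the matrix. All 8 slow fibre genes had a higher mean in PMM, with a median of 0.54, and 4 of them had every PMM array above every LDM array, beside 4.11% of all named genes. Of these, troponin I of slow fibres (TNNI1) differed by 1.03 (SE 0.35), MYOZ2 by 1.02 (SE 0.33) and TPM3 by 0.93 (SE 0.35). The oxygen store myoglobin (MB) read 3.55, 3.75 and 3.63 in LDM and 5.91, 4.40 and 5.02 in PMM. The 10 fast fibre genes had a median of 0.05, with MYH2 at 0.49, TNNT3 at 0.40 and PVALB at 0.14, and the median of this list was -0.17 with the normexp correction. The muscle genes ENO3 and MYOD1 differed by -0.38 and 0.20. All of these had an adjusted p of 1.0 in limma.

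**Figure D4:**
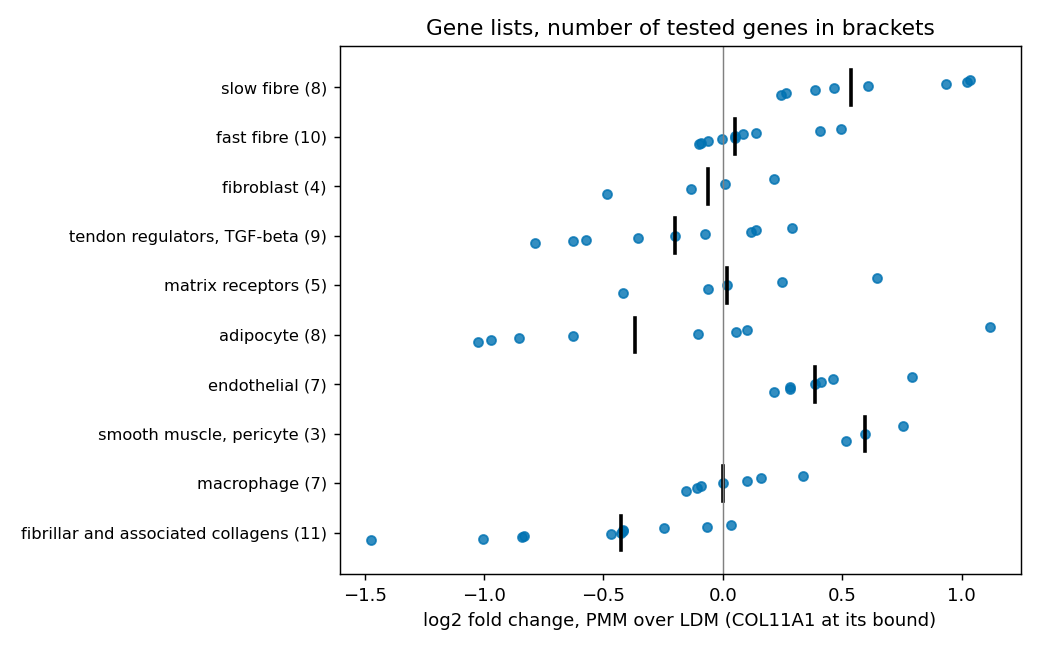
Difference between the muscles (horizontal axis, log2 fold change, PMM over LDM) for the tested genes of 10 lists; each point is a gene, each black bar the median of its list, COL11A1 stands at its bound, and the number of genes stands in brackets. The medians of collagens (-0.43) and adipocyte markers (-0.37) lie left of 0, and those of slow fibre (0.54), endothelial (0.38) and smooth muscle genes (0.60) lie right of it. The adipocyte median counts PLIN1 and RETN, which were well above background on every array only in LDM.

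Genes whose signal followed that of TNMD most closely over the 6 arrays were searched among 2720 named genes that exceeded the background on every array. Such likeness includes the muscle difference by which TNMD was chosen, so it favours genes lower in PMM. As a description, over arrays that share days and so are not independent, Pearson's r was highest for UFC1 (0.996), NUDT2 (0.992), ANKRD1 (0.982), ARHGAP11A (0.980) and CRABP1 (0.977). Of these, ANKRD1, a stretch-responsive ankyrin repeat protein of the muscle fibre, read 7.54, 6.13 and 6.33 in LDM and 4.86, 4.35 and 1.76 in PMM, so that PMM replicate 3 was again lowest, with a difference of -3.01. The retinoic acid binding protein CRABP1 had a difference of -1.58, while the other 3 differed by less than 0.5.

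The mean signal of DCN, BGN, SPARC and FN1 was followed by other genes, with C2 (0.999), ST3GAL4 (0.996), MMP2 (0.995), TRERF1 (0.994) and IFI30 (0.994) highest. MMP2, the gelatinase that degrades denatured and basement membrane collagen, read 4.39, 4.89 and 6.02 in LDM and 4.46, 4.71 and 5.34 in PMM. In both muscles replicate 1 was lowest and replicate 3 highest. Among the genes of the set themselves, as a description over the same 6 arrays, r with POSTN was 0.89 for DCN, 0.92 for FN1, 0.46 for SPARC and 0.19 for BGN. With TNMD it was 0.11 for DCN, 0.22 for FN1, 0.11 for SPARC, -0.48 for BGN and 0.52 for POSTN. The last value includes the muscle difference by which TNMD and POSTN were chosen. Over deviations from each muscle's mean, r of TNMD was -0.39 with POSTN and between -0.53 and -0.38 with DCN, BGN, SPARC and FN1. That of POSTN was 0.96 with DCN, 0.95 with FN1, 0.59 with BGN and 0.34 with SPARC.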

How the data were processed

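The authors deposited linear spot intensities of the Cy3 channel from Agilent Feature Extraction 10.5.1.1, which had subtracted the background but not normalized between arrays. The labels' text on RNA extraction speaks of adipose tissue, and the samples were taken as the named muscles. The paper's text gives neither a normalization nor a test for the arrays.

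Control spots and outlier spots were left out, each array's 75th percentile was subtracted from log2 intensity, and spots of a probe were averaged. The 25835 probes flagged as well above background on the 3 arrays of at least 1 muscle, with at least 2 values per muscle, were tested with limma 3.58.1 in R 4.3.3 (two-sided, Benjamini-Hochberg over all probes, threshold 0.05), and single genes also by exact permutation of the 6 arrays. The number of arrays, 3 per muscle, limits the precision. The fit was tested on simulated data, where it called 58.5% of the 200 probes changed by 2 or 3 log2 units in either direction, and 4 unchanged probes. Changes as small as those of DCN, BGN, SPARC and FN1 were not simulated, so the rate at which they would be called is not known. A gene that was not called is therefore not shown to be equal between the muscles. Labels do not tie an array to a pig, so p-values measure the spread between these samples.

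A gene is given by its brightest probe. Probes were named through gene tables of the Sscrofa11.1 assembly (2865 by accession, 1293 by gene number) or the files (896), and 38549 had no name. Of the lists, 1 gene is not reported here. No coordinates were used, since the files give none for the probes of the set. Named were all probes of the set, in every list the 3 tested genes that differed most in either direction, and the 5 genes nearest to TNMD and to the mean of DCN, BGN, SPARC and FN1. All tested adipocyte markers were named too. The genes, the lists and the rules were chosen with earlier results of these data known.

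Replicate numbers were checked for pairing. Deviations from the muscle mean correlated at 0.62, 0.70 and 0.56 between arrays of one number and between -0.54 and -0.01 otherwise, so the numbers pair the arrays. The fit reported has no block, so its intervals and p-values, and the exact permutation, leave this pairing out. A blocked fit by number was an alternative, given for DCN, BGN, SPARC and FN1, for the counts of calls and for single list genes. Alternatives covered scaling, background correction, filter, outlier spots, the deposited value table, blocks by replicate number and slide, and leaving out each array. Counts and medians of the lists under other scalings, without single arrays and over genes detected everywhere were added after seeing the data.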

Additional observations from a re-analysis of the deposited data

How the results depend on the processing

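None of DCN, BGN, SPARC and FN1 was called under any alternative, their adjusted p lying between 0.31 and 1.0, and their median difference stayed below 0, between -0.54 (normexp) and -0.05 (without LDM replicate 3). The number of probes called over the whole array depended on the setting. It was 8 in the analysis reported, 0 with the 75th percentile taken over detected probes, with no filter on detection and with outlier spots kept, 1 with normexp, 17 with the replicate number as a block and 300 with the slide as a random block. It was 0 to 1 without single arrays. In fits chosen after seeing the data, the block gave 529 without replicate 1, 1 without replicate 2, 0 without replicate 3 and 0 with quantile normalization; the cause was not tested. Every PMM array lay below every LDM array for 0 of the 4 genes, but for 2 without LDM replicate 1 and for 2 with the block without replicate 1, where fewer arrays are compared (range over single arrays left out 0 to 2). The TNMD difference was -1.40 with normexp, and -2.93 to -1.86 without single arrays. DCN ranged from -0.77 to -0.10, FN1 from -0.66 to -0.18, BGN from 0.0098 to 0.97 and SPARC from -0.45 to 0.066 without single arrays, where SPARC turned above 0 without LDM replicate 3 alone. Normexp moved the median of all probes from -0.04 to 0.11, so that relative to it the 4 genes' median was lower still. The blocked fit changed no call of DCN, BGN, SPARC or FN1. FMOD and BGN signals were close to the background, which limits what can be said of them.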
